A study of Mus musculus with 11 samples.

Results

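Cohesin sites that had been called in a single replicate were compared with sites called in both replicates of the same chromatin immunoprecipitation (ChIP-seq) experiment. Smc1a, a subunit of the cohesin ring, was mapped in sorted CD4+ CD8+ double positive thymocytes of wild-type (WT) mice aged 6 weeks, in 2 libraries called Rep1 and Rep2. Peaks of both lists that touched or overlapped were merged into 28128 regions of the mouse build mm9, and members were chosen by their calls as the regions with a peak of exactly 1 list. There were 10493 Rep1-only regions (37.3% of all) and 2787 Rep2-only regions (9.91%), together 13280 (47.2%), and the other 14848 regions (52.8%) were reproducible.

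Acetylated lysine 27 of histone H3 (H3K27ac) had been mapped in 2 KO and 2 WT libraries of the same sorted cell stage at the same age. KO cells were Rad21 -/-, made by crossing a floxed Rad21 allele with a Cre transgene under Cd4 control, and the WT cells came from littermates described as controls, whose own alleles the labels do not list. Smc1a was mapped in WT cells only. No label ties a library to a mouse, so differences between 2 libraries of a group may be technical.

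Cohesin is a ring of Smc1a, Smc3, Rad21 and a Stag subunit that encloses DNA, holds sister chromatids together and extrudes chromatin loops. In interphase it is halted mainly where the factor CTCF is bound, and it is also found at active enhancers and promoters, which carry H3K27ac. A site that only one list holds was not called in the other, which is no measured absence of cohesin, since the lists hold no reads and the depth per library is unknown. No mm9 gene annotation or sequence was used here, so regions are given by coordinates, counted from 1, without genes, promoters or CTCF motifs, and the cell type was not checked against marker genes.

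The Rep1 list held 25484 peaks and the Rep2 list 17726 peaks, and no peak had identical coordinates in both. Rep1-only regions took up 41.2% of the Rep1 list and Rep2-only regions 15.7% of the Rep2 list. With the Rep1 list shortened to its top-scoring peaks, as many as the Rep2 list held, there were 4723 Rep1-only and 4717 Rep2-only regions. Near-equal counts follow from the equal list lengths, so they are no result about the replicates. Every member consisted of 1 peak. The calls that chose the members also fix their score ranks, widths and distances to reproducible sites in part, so those measures are given as descriptions without a test. H3K27ac was not used in the choice.

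Members sat low in the score ranking of their lists. The score had been deposited by the authors with each peak, with a lowest value of 50 in Rep1 and 50.01 in Rep2, and it was used only within a list. Rep1-only regions had a median score of 85.8 (quartiles 63.3 and 135), and reproducible regions had a median of 268 (138 and 502) in the same list. As score percentiles of the Rep1 list these were 27.1 for Rep1-only regions (quartiles 12.7 and 45.5) and 68.1 for reproducible regions (46.1 and 84.9). Rep2-only regions had a median score of 63.4 (quartiles 55.1 and 80.7), against 137 (82.6 and 251) for reproducible regions in the Rep2 list. Their median percentile was 17.9, against 57.1 for reproducible regions.

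Rep2-only regions lay closer to the lower end of their list than Rep1-only regions did to theirs, with median percentiles of 17.9 and 27.1. Scores within 10 of the lowest value of the list were held by 1163 Rep2-only regions (41.7%) and by 2092 Rep1-only regions (19.9%), and by 8.94% and 3.004% of reproducible regions in the Rep2 and Rep1 lists. That window took in a larger part of the Rep2 list, whose lowest 10% ended at a score of 56.6, against 59.94 in Rep1.

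The share of peaks without a partner fell steadily with the score rank. In the lowest 10% of the Rep1 list, with scores up to 59.94, 81.7% of peaks had no partner, and in the highest 10%, with scores from 641.08, 1.73% had none. In the Rep2 list 49.2% of peaks had no partner in the lowest 10% (scores up to 56.6) and 0.733% in the highest 10% (scores from 398.24). Every step between neighbouring score classes was downward in both lists. Single-replicate calls thus reached into the top of each list, with 44 Rep1-only and 13 Rep2-only regions in the highest 10%.

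**Figure D1:**
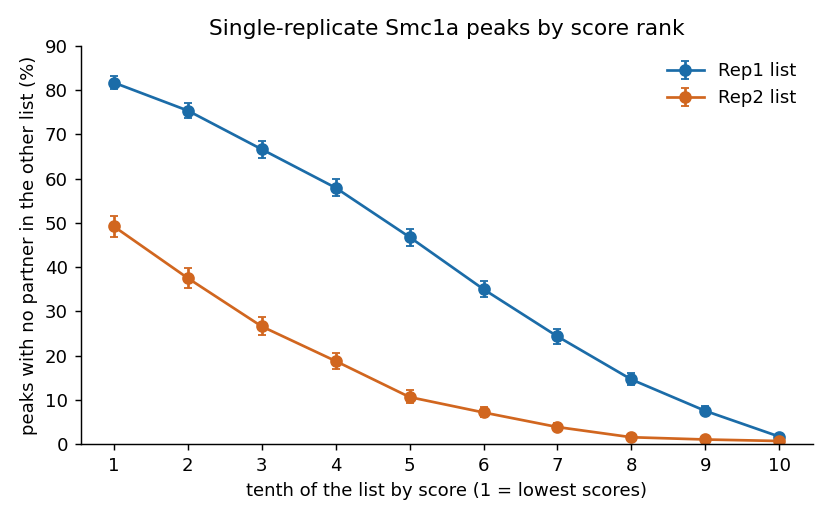
Percentage of Smc1a peaks with no partner in the other list (y) by score class of the list, from the lowest 10% to the highest 10% (x), with Wilson 95% intervals. The Rep1 curve falls to 1.73% in the highest class and the Rep2 curve to 0.733%, and the Rep1 curve is the higher one in every class.

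The strongest Rep1-only call lay on chromosome 17 from 39979852 to 39984282 (4431 bp). Its score of 1580.97 ranked 141 in the Rep1 list, no H3K27ac list had a peak on it, and the nearest reproducible site and the nearest Rep2 peak were both 2595680 bp away. A second Rep1-only peak of 1583 bp with a score of 177.75 began at 39984299, which was chosen for mention after its values were seen. The next strongest call, on chromosome 19 from 43827075 to 43828197 (1123 bp, score 1309.74, rank 323), lay over its whole length in peaks of all 4 H3K27ac lists and 6643 bp from a reproducible site. The call ranked 383, on chromosome 7 from 17592615 to 17593310 (696 bp, score 1261.84), overlapped no H3K27ac peak but lay 1247 bp from a WT region and 3976 bp from a reproducible site. The 3 strongest Rep1-only calls thus differed in their surroundings.

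The highest scores of the whole Rep2 list belonged to single-replicate calls. On chromosome 9, the region spanning 123832681 to 123834571 (1891 bp) scored 2497.13 and held rank 1. One from 123842790 to 123844838 (2049 bp) had a score of 2487.27 and rank 2. A further Rep2-only peak lay between them, from 123840867 to 123842027 (1161 bp, score 782.87, rank 319), and was named after its values were seen. None of these 3 regions overlapped a peak of any H3K27ac list, and they were 55981 to 66248 bp from a reproducible site. The next strongest Rep2-only call scored 842.58 (rank 261). It lay on chromosome 4 from 134731126 to 134731959 (834 bp), 2707 bp from a Rep1 peak and 2657 bp from a WT acetylated region, and it too overlapped no H3K27ac peak.

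Single-replicate regions were narrower than reproducible ones. Median widths were 641 bp for Rep1-only regions (quartiles 487 and 854), 518 bp for Rep2-only regions (414 and 701) and 773 bp for reproducible regions (634 and 995). A reproducible region is the union of at least 2 peaks and is therefore at least as wide as each of them. Peak by peak the difference was smaller, with a median of 641 bp for Rep1-only peaks against 707 bp for the Rep1 peaks of reproducible regions, and 518 bp for Rep2-only peaks against 689 bp for the Rep2 peaks of reproducible regions. Regions over 2000 bp made up 3.31% of Rep1-only, 0.897% of Rep2-only and 3.62% of reproducible regions.

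Among the longest members, most lay in acetylated chromatin. The longest Rep1-only region spanned 12467 bp of chromosome 11 from 52086134 to 52098600, with a score of 311.27, and WT acetylated chromatin covered all of it. The other 2 longest Rep1-only regions lay near each other on chromosome 7, from 132694496 to 132701583 (7088 bp) and from 132720638 to 132726349 (5712 bp), with scores of 204.63 and 217.35, and WT regions covered 7088 and 5521 bp of them. The longest Rep2-only region spanned 9224 bp of chromosome 3 from 87941864 to 87951087, with a score of 105.86, and all 4 H3K27ac lists covered it completely. A Rep2-only region of 4487 bp on chromosome 17 from 47641177 to 47645663 (score 256.17) was likewise covered in all 4 lists. The exception was the Rep2-only region of 4722 bp on chromosome 11 from 3083707 to 3088428. It had a score of 59.65 and no H3K27ac peak in any list.

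The main independent readout was acetylation. A region was called acetylated where it overlapped by at least 1 bp a WT H3K27ac region that held a peak of both WT lists, and there were 13937 such WT regions. Of the 2787 Rep2-only regions, 1124 were acetylated (40.3%, Wilson 95% interval 38.5 to 42.2). Of the 10493 Rep1-only regions, 2298 were acetylated (21.90%, 21.1 to 22.7), and of the 14848 reproducible regions 3260 (21.96%, 21.3 to 22.6). Over all merged Smc1a regions the share was 23.8%. Rep2-only regions were thus acetylated more often than either other class, while Rep1-only and reproducible regions had nearly equal shares.

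The Rep2-only share exceeded the reproducible share by 18.4 percentage points (Newcombe 95% interval 16.4 to 20.3) and was the higher of both on 20 of 20 chromosomes (1 to 19 and X). The Rep1-only share minus the Rep2-only share was -18.4 points (-20.4 to -16.5), and the Rep1-only share was the higher of both on 0 of 20 chromosomes. The Rep1-only share minus the reproducible share was -0.056 points (-1.09 to 0.982) and was higher on 11 of 20 chromosomes, so no difference was detectable there. These intervals treat regions as units. They cover counting error within these libraries, not the spread between libraries or mice.

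Rep2-only regions also had the highest share in each of the 4 H3K27ac libraries taken alone. A peak of KO replicate 1 overlapped 41.3% of Rep2-only, 26.1% of Rep1-only and 23.4% of reproducible regions, and one of KO replicate 2 overlapped 39.2% of Rep2-only, 26.1% of Rep1-only and 22.6% of reproducible regions. A peak of WT replicate 1 overlapped 43.1% of Rep2-only, 27.3% of Rep1-only and 24.97% of reproducible regions. WT replicate 2 separated Rep2-only regions as clearly, with 42.1% against 22.4% of reproducible regions, but gave 22.3% for Rep1-only regions. Rep1-only regions exceeded reproducible ones by 2.69 points in KO replicate 1 (1.61 to 3.77), 3.53 points in KO replicate 2 (2.46 to 4.61) and 2.38 points in WT replicate 1 (1.28 to 3.48), but by -0.050 points in WT replicate 2 (-1.09 to 0.994). The near equality of Rep1-only and reproducible regions therefore rested on WT replicate 2, the shortest H3K27ac list (15686 peaks, against 19503 to 21973 in the others).

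**Figure D2:**
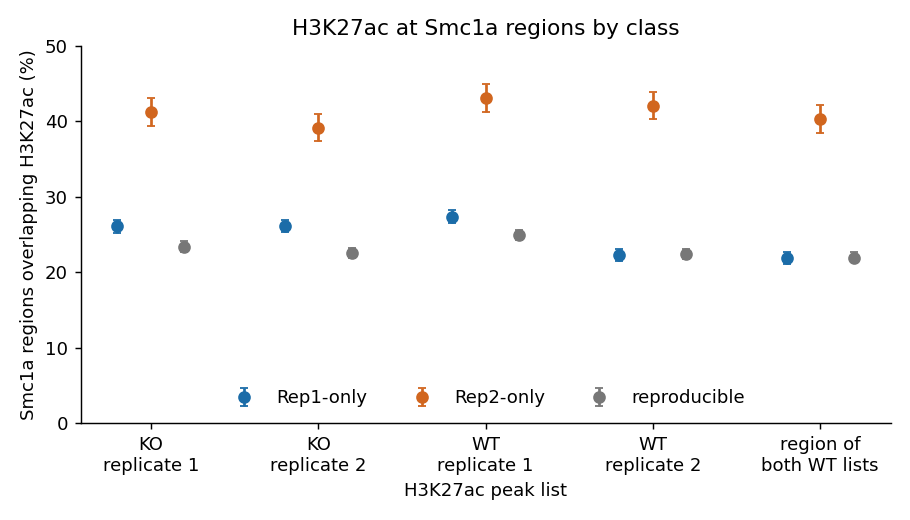
Percentage of Smc1a regions of each class that overlap H3K27ac (y) in each of the 4 peak lists and in WT regions held by both lists (x), with Wilson 95% intervals. Rep2-only regions lie between 39.2% and 43.1% in every column, above Rep1-only and reproducible regions, which lie between 21.9% and 27.3%.

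Members of both classes fell more often than reproducible sites on chromatin whose acetylation call differed between libraries. A peak in 1 to 3 of the 4 H3K27ac lists was found at 10.6% of Rep1-only, 11.4% of Rep2-only and 8.18% of reproducible regions. The excess over reproducible regions was 2.46 points for Rep1-only (1.73 to 3.20) and 3.27 points for Rep2-only regions (2.05 to 4.58). All 4 lists had a peak at 19.8% of Rep1-only, 35.3% of Rep2-only and 19.3% of reproducible regions. Among regions with any H3K27ac peak the order was another one. Differing calls were rarest, relative to calls in all 4 lists, for Rep2-only regions (319 against 985). Reproducible regions followed (1214 against 2867), and Rep1-only regions had the most (1116 against 2077). The Rep2-only excess thus holds only as a share of all regions.

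The classes differed further when regions of like score rank were set side by side. The Rep1 list was divided into 5 score bands of equal size, and each Rep1-only or reproducible region was placed by its best Rep1 peak. Rep1-only regions were acetylated at 22.4%, 21.4%, 20.3%, 23.1% and 30.1% from the lowest to the highest band. Reproducible regions fell over the same bands, with 44.4%, 33.9%, 24.3%, 16.2% and 15.9%. The Rep1-only minus reproducible difference was therefore -22.02 points in the lowest band (-25.3 to -18.8) and 14.1 points in the highest band (8.55 to 20.4). The classes were spread differently over the bands. The lowest 2 bands held 4003 and 3175 of the 10493 Rep1-only regions, and the highest 2 held 4084 and 4850 of the 14848 reproducible regions. Weighted by the Rep1-only numbers per band, the difference was -12.0 points (-13.6 to -10.4). The calls that chose the members also fix these score ranks in part. A reproducible region of a low Rep1 band is one that was also called in Rep2. The comparison by band therefore cannot separate score from the choice of members, and the same holds for the Rep2 list.

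In the Rep2 list the pattern was of another kind. Rep2-only regions were acetylated at 31.0%, 47.6%, 57.0% and 70.1% from the lowest band to the fourth, and at 50% (16 of 32 regions) in the highest. Reproducible regions stayed between 20.7% and 23.2% in all 5 bands of the same list. The Rep2-only excess ran from 10.3 points in the lowest band (7.43 to 13.3) to 48.5 points in the fourth band (38.7 to 56.8), where 68 of 97 regions were acetylated. In the Rep2 list a single-replicate call with a fairly high score was thus more often acetylated than one at the lower end. Reproducible regions outside acetylation had median percentiles of 70.7 in Rep1 and 56.8 in Rep2, and 28.6% ranked higher in Rep2. Inside acetylation these medians were 54.7 and 58.2, and 54.4% ranked higher in Rep2. By median, acetylated reproducible regions thus ranked below the others in Rep1 and slightly above them in Rep2. These ranks come from the lists that chose the members and depend on the unshared peaks of each list. They are descriptions without a test. Depth, enrichment and the input used per library are unknown, and their part in these differences was not tested.

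**Figure D3:**
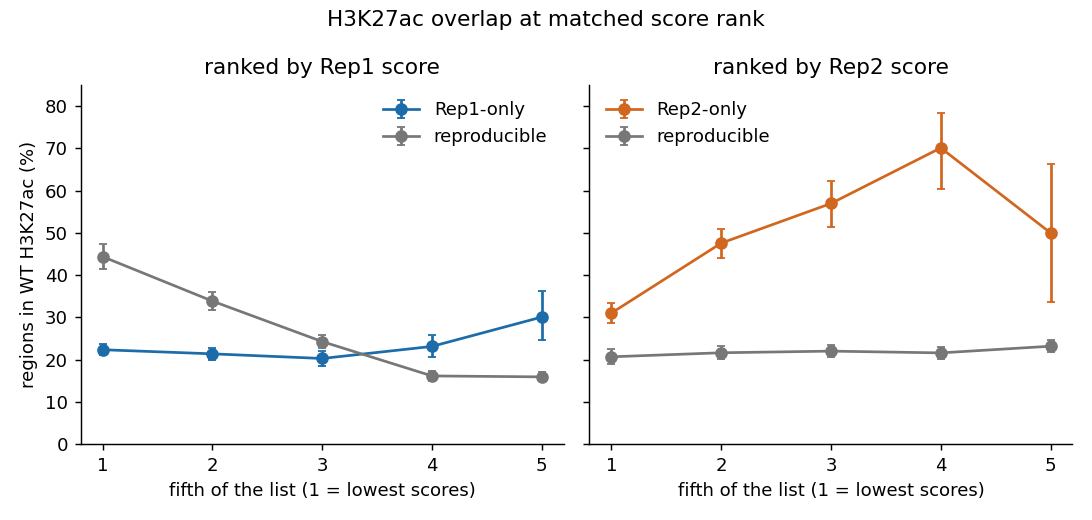
Percentage of regions in WT H3K27ac (y) by score band of the Rep1 list (left) and the Rep2 list (right), from the lowest to the highest scores (x), with Wilson 95% intervals. On the left the reproducible curve falls to 15.9% and crosses the Rep1-only curve, which ends at 30.1%. On the right the Rep2-only curve lies above the reproducible curve in every band and reaches 70.1% in the fourth.

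Acetylated regions were wider in every class, with medians of 951 bp against 596 bp for the others among Rep1-only regions, 683 against 449 bp among Rep2-only regions and 1068 against 736 bp among reproducible regions. Over 5 width bands set on all merged regions, the acetylated share went up from 19.2% (up to 509 bp) to 86.7% (over 1012 bp) among Rep2-only regions. Over the same bands it went up from 7.31% to 58.0% among Rep1-only regions and from 5.81% to 49.9% among reproducible regions. In each band Rep2-only regions had the highest share and reproducible regions the lowest. A reproducible region is a union of peaks, so its merged width is not measured like that of a member. Weighted over the bands of merged width, the Rep1-only minus reproducible difference was 4.53 points (3.60 to 5.45). Over bands of the width of the best Rep1 peak, a comparison added after the data were seen, it was 0.768 points (-0.177 to 1.72), and the same comparison by Rep2 peaks gave 25.02 points (23.3 to 26.7) for Rep2-only minus reproducible regions.

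**Figure D4:**
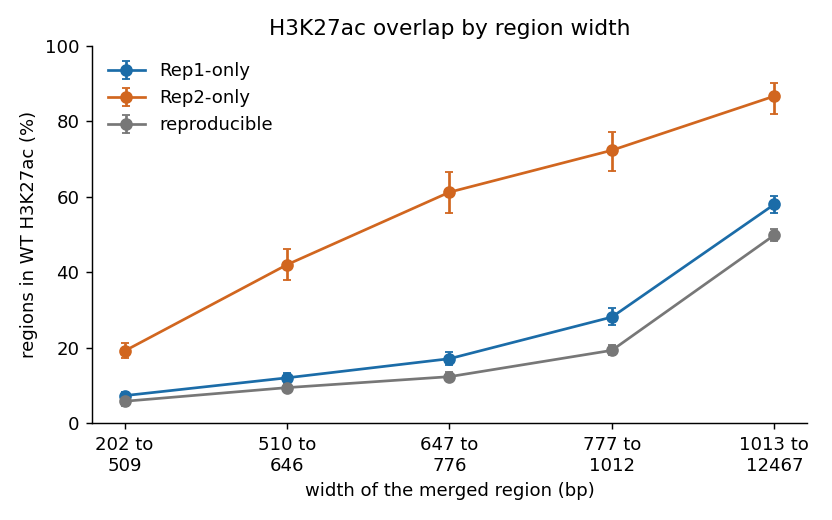
Percentage of regions in WT H3K27ac (y) by width of the merged region in bp (x), with Wilson 95% intervals. All 3 classes go up with width, and Rep2-only regions lie highest in each band, at 86.7% among regions over 1012 bp.

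The acetylated regions that held members were longer than the average. All WT regions had a median length of 2552 bp, those around acetylated Rep1-only sites 3581 bp, those around Rep2-only sites 4706.5 bp and those around reproducible sites 4820 bp, counted once for each site. Of the 1124 acetylated Rep2-only regions, 432 (38.4%) shared their WT region with a reproducible site, against 446 of 2298 acetylated Rep1-only regions (19.4%). The Rep1-only share minus the Rep2-only share was -19.0 points. These shares are descriptions without a test, since the calls that chose the members also fix which sites are reproducible. The WT regions around acetylated Rep2-only sites were also longer than those around Rep1-only sites (medians of 4706.5 and 3581 bp). The part of length in this difference was not tested. At 1759 WT regions a Rep1-only site was present without a reproducible one, and at 639 a Rep2-only site was, while 8931 of 13937 WT regions (64.1%) had no Smc1a peak in either list.

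The strongest acetylated members were covered in the KO lists as well. For Rep1-only regions these were, after the chromosome 19 region given above, one of chromosome 16 from 10783970 to 10788979 (5010 bp, score 1151.26) and one of chromosome 11 from 106018922 to 106023228 (4307 bp, score 1031.72). The chromosome 16 region was covered over 5010 bp in KO replicate 1 and 3815 bp in KO replicate 2, and the chromosome 11 region over its whole 4307 bp in each. For Rep2-only regions they were on chromosome 16 from 93344790 to 93346048 (1259 bp, score 662.7), chromosome 19 from 59755566 to 59756921 (1356 bp, score 555.84) and chromosome 4 from 74924742 to 74925602 (861 bp, score 486.08). KO replicate 1 covered these 3 regions completely, and KO replicate 2 did so except for 48 bp of the chromosome 19 region.

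The next comparison asked whether acetylation at single-replicate cohesin sites was also called after Rad21 deletion. Of acetylated Rep1-only regions, 91.6% (90.4 to 92.7) had a peak in both KO lists, against 88.7% (87.5 to 89.7) of acetylated reproducible regions. The difference was 2.96 points (1.37 to 4.52). No KO peak was found at 70 of 2298 acetylated Rep1-only regions (3.05%) and at 163 of 3260 reproducible ones (5%), a difference of -1.95 points (-2.97 to -0.905). In these 2 KO lists, acetylation was thus called slightly more often at acetylated Rep1-only than at acetylated reproducible regions. The intervals treat regions as units, although some lie in the same WT region. They do not cover the spread between KO libraries or mice. The WT regions around acetylated Rep1-only sites were also shorter, as given above, and the part of length in this difference was not tested.

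For acetylated Rep2-only regions the KO share did not differ detectably from that of reproducible regions. Both KO lists had a peak at 88.0% (86.0 to 89.8), a difference of -0.692 points (-2.97 to 1.41), and 54 of 1124 (4.80%) had no KO peak. In the upper 75% of each Smc1a list the difference was 3.27 points (0.886 to 5.45).

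Over whole libraries the KO and WT values overlapped for Rep1-only regions. The share of members with an H3K27ac peak was 26.1 ± 0.0202% in KO and 24.8 ± 3.56% in WT libraries for Rep1-only regions (SD, n = 2 each), a difference of 1.27 points that was smaller than the spread between the WT libraries (two-sided exact permutation test, p = 1). Without WT replicate 2 it was -1.24 points and without WT replicate 1 it was 3.79 points. For Rep2-only regions it was 40.2 ± 1.47% in KO and 42.6 ± 0.685% in WT libraries, a difference of -2.35 points. Both KO values (41.3% and 39.2%) lay below both WT values (43.1% and 42.1%), and the exact permutation test gave p = 0.333, which is the lowest it can reach with 2 libraries in each group. For reproducible regions the KO values were 23.4% and 22.6% and the WT values 24.97% and 22.4%. These overlapped, with a difference of -0.673 points.

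Distances to reproducible sites were longest for Rep1-only regions. Their median was 23073 bp (quartiles 8046 and 56255), that of Rep2-only regions 15854 bp (3709 and 57398), and the median gap from a reproducible site to the next reproducible one was 19704 bp (quartiles 5959 and 51840). Within 1000 bp of a reproducible site lay 4.60% of Rep1-only and 12.1% of Rep2-only regions, while 6.67% of reproducible sites had another one that near. Within 10000 bp the shares were 29.4%, 40.7% and 34.1% for Rep1-only, Rep2-only and reproducible regions. Rep2-only regions thus had the highest share within 1000 and within 10000 bp. They also had the highest share beyond 100000 bp, with 15.9%, against 13.0% of Rep1-only and 11.2% of reproducible regions.

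**Figure D5:**
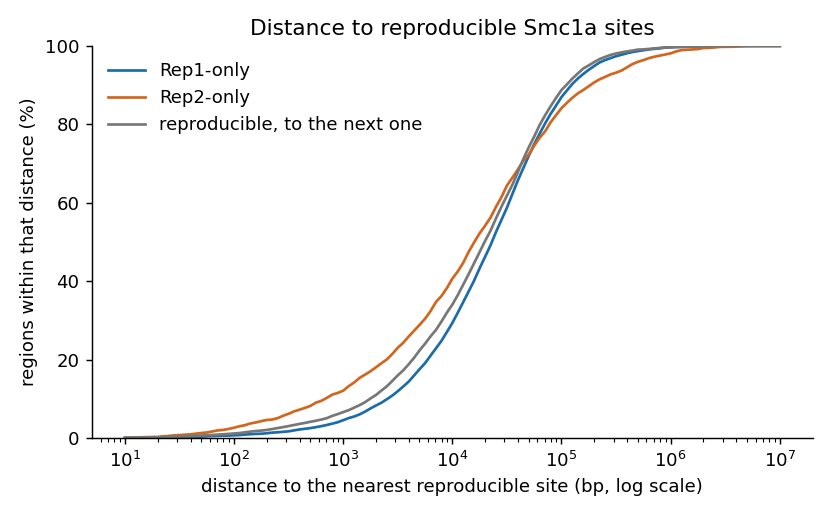
Cumulative percentage of regions (y) by distance to the nearest reproducible Smc1a site in bp on a log scale (x), with reproducible sites measured to the next reproducible one. At 10000 bp the Rep2-only curve stands at 40.7%, above the reproducible curve (34.1%) and the Rep1-only curve (29.4%).

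Acetylated regions of every class lay nearer to reproducible sites than the others did. Inside WT acetylated chromatin the median distance was 12675.5 bp for Rep1-only, 6796 bp for Rep2-only and 8405 bp for reproducible regions. Outside it the medians were 26746, 27665 and 25458 bp in the same order of classes. Away from acetylation the median distances of the classes were thus similar. There 25.3% of Rep1-only, 29.3% of Rep2-only and 28.4% of reproducible regions lay within 10000 bp of a reproducible site. The longer distances were not compared apart for regions outside acetylation. Among Rep2-only regions the acetylated ones also had the higher scores (median percentile 23.7, against 14.6 for the others), whereas Rep1-only regions had a median percentile of 27.1 in either setting.

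As a share of all regions of the class, Rep2-only regions were fewer at middle distances from acetylation. Outside WT regions but within 10000 bp of one lay 16.2% of Rep1-only, 14.0% of Rep2-only and 18.4% of reproducible regions. More than 10000 and up to 100000 bp away lay 45.0% of Rep1-only regions (44.0 to 45.9), 27.6% of Rep2-only regions (26.0 to 29.3) and 45.6% of reproducible regions (44.8 to 46.4). Beyond 100000 bp the shares were 16.9%, 17.8% and 14.0% in the same order of classes. The many Rep2-only regions inside WT regions lower their shares outside. Of regions outside, 390 of 1663 Rep2-only and 2739 of 11588 reproducible regions lay within 10000 bp, which are nearly equal shares. Over 10000 and up to 100000 bp these were 770 and 6771, so there the Rep2-only share stayed the lower one. Beyond 100000 bp they were 495 and 2073, so there the Rep2-only share was the higher one. A distance could not be given for 1 Rep1-only, 8 Rep2-only and 5 reproducible regions of chromosome Y, where WT replicate 1 had no H3K27ac peak.

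Few members were near misses of the rule by 100 bp or less. A peak of the other replicate lay within 100 bp of 70 Rep1-only regions (0.667%) and 57 Rep2-only regions (2.05%), and within 1000 bp of 4.99% and 13.6% of them. The member closest to the other list was a Rep1-only region of chromosome 6 from 143122616 to 143123263 (score 56), with a gap of 2 bp. Gaps of 7 bp separated Rep1-only regions of chromosome 11 from 46183642 to 46185197 (score 69.62) and from 116747189 to 116747933 (score 70.02) from a Rep2 peak. Gaps of 7, 9 and 10 bp were those of Rep2-only regions of chromosome 15 from 67241580 to 67242155 (score 75.53), chromosome 12 from 115853886 to 115854530 (score 89.85) and chromosome 8 from 114089981 to 114090938 (score 98.61).

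On the other side of the rule, the reproducible region with the fewest shared bases lay on chromosome 3 from 27168897 to 27169926, where the peaks shared 24 bp (scores 64.5 in Rep1 and 73.84 in Rep2). The next ones shared 77 bp on chromosome 1 from 13687368 to 13688344 and 116 bp on chromosome 3 from 38326556 to 38327221. The median reproducible region shared 620 bp and 1 region shared under 50 bp. Marginal overlaps thus played little part in the division of the classes.

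The members farthest from a reproducible site had scores in the lower part of their lists, at percentiles of 4.33 to 37.2 for the 3 Rep1-only and 4.39 to 22.1 for the 3 Rep2-only regions named here. The farthest Rep1-only region was on chromosome 17 from 95134789 to 95135322 (score 109.47), 5981764 bp away. It was followed by regions of chromosome 5 from 59127881 to 59128240 (score 54.01, 4041465 bp) and chromosome 14 from 83896060 to 83896620 (score 55.45, 3181439 bp). None of these 3 overlapped an H3K27ac peak. The farthest Rep2-only regions were both on chromosome X, from 111079647 to 111080126 (score 52.65, 4871191 bp) and from 110981490 to 110981849 (score 58.19, 4773034 bp), followed by one of chromosome 14 from 95156635 to 95157083 (score 68.04, 4384106 bp). The second of these lay wholly within peaks of all 4 H3K27ac lists.

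Runs of members were counted as a description. No such share was computed for reproducible regions or for classes of like size, so it is not known whether the shares are low or high. Runs of at least 3 regions of 1 class, with gaps of up to 12.5 kb and no region of another class between them, held 664 Rep1-only regions (6.33%, in 201 runs) and 192 Rep2-only regions (6.89%, in 53 runs). The following runs were named after their values were seen. The longest Rep1-only run had 9 regions on chromosome 6 from 146414606 to 146470874, of which 8 were acetylated. The next had 6 regions on chromosome 9 from 20510298 to 20561833, none acetylated. The longest Rep2-only run had 8 regions on chromosome 4 from 145135726 to 145165057, none acetylated, with a highest score of 325.48. The next Rep2-only runs were on chromosome 2, from 101409400 to 101435418 with 6 of 6 regions acetylated and from 163443910 to 163458067 with 5 of 6 acetylated, and on chromosome 18 from 12613206 to 12632152 with 2 of 6 acetylated.

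The classes were spread unevenly over chromosomes. Rep1-only regions made up 28.8% of merged regions on chromosome X and 44.0% on chromosome 19, the lowest and the highest share outside chromosome Y. Rep2-only regions made up 5.72% on chromosome 11 and 13.9% on chromosome 10. The 3 chromosomes with the highest Rep1-only share, 19 (44.0%), 5 (42.1%) and 11 (41.6%), had the 3 lowest Rep2-only shares, of 6.38%, 7.04% and 5.72%. Both shares have the same denominator, so one limits the other. Chromosome Y held 14 merged regions, 1 Rep1-only, 8 Rep2-only and 5 reproducible.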

How the data were processed

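Per the submitters' processing notes, Bowtie 0.12.8 was used for alignment and mm9 was the build. Each deposited list belongs to 1 library and gives position, MACS peak name and score per peak. The sources used here do not give the caller's version and settings, the filters or the matched input. The score is the authors' deposited value and served to rank and filter within each list. Depth per library is unknown. The 5 input libraries were not analysed here.

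Peaks that touched or overlapped were merged, and coordinates were converted to count from 1 (Python 3.11.15, numpy 2.4.6, pandas 2.3.3, scipy 1.17.1). Shares carry Wilson 95% intervals, and differences of shares Newcombe 95% intervals, which cover counting error only. Differences at like score, merged width or peak width were weighted over 5 bands by the members' numbers. For KO minus WT shares, the 4 H3K27ac libraries were the units of an exact permutation test (two-sided). Interval functions were tested on simulated data.

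Named regions were, per class, the 3 highest-scoring, 3 longest, 3 farthest from reproducible sites, 3 highest-scoring within WT H3K27ac and 3 nearest to the other list, plus the 3 reproducible regions with the fewest shared bases. The members and comparisons were chosen with earlier results of these data known. Alternatives were score thresholds, equal list lengths, merging within 500 or 1000 bp, overlap rules and left-out H3K27ac libraries. An overlap rule by the middle base of a peak, and the alternatives to the KO shares of acetylated members, were chosen after seeing the data.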

Additional observations from a re-analysis of the deposited data

How the results depend on the processing

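Of 81 alternatives run on 11 results, 60 changed neither direction nor call, moved a count by less than 1.5 times, or left a median within its 95% interval. The Rep2-only acetylation excess over reproducible regions (18.4 points) kept its direction and its interval above 0 in all 12 of its alternatives. Its size ran from 13.7 points with merging within 1000 bp to 31.1 points in the upper 75% of each list. The alternatives over score and width bands use measures that the choice of members fixes in part. With merging within 1000 bp there were 2290 Rep2-only regions, of which 34.8% were acetylated. The number of Rep1-only regions was 4723 with equal numbers of Smc1a peaks, and that of Rep2-only regions was 4717 there and 1772 in the upper 75% of each list. Median distances to a reproducible site were 30307.5 bp (Rep1-only) and 18992.5 bp (Rep2-only) in the upper 75%, 24729 and 21599 bp with equal numbers, 24258 and 20881 bp with merging within 500 bp, and 25058 and 23196.5 bp within 1000 bp. Rep1-only regions had the longer median in each of these.

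The Rep1-only minus reproducible difference in acetylation was 4.29e-04 points in the upper 75%, 2.60 points with equal numbers, 2.38 points without WT replicate 2 (-0.050 without WT replicate 1), -12.0 points at like score and 4.53 points at like merged width, which is a union of peaks for reproducible regions. Over bands of peak width in the calling list, added after the data were seen, it was 0.768 points. For the share kept in both KO lists, an alternative set chosen after seeing the data, the Rep2-only minus reproducible difference was 3.27 points in the upper 75%, 0.664 points with equal numbers, and ran from -0.823 to 0.327 points without 1 KO library. The cause of these changes was not tested.

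With 1 H3K27ac library left out, the KO minus WT difference ranged between -1.24 and 3.79 points for Rep1-only and between -3.39 and -1.31 points for Rep2-only regions. The replicate block gave 1.27 points (exact sign-flip permutation p = 1) and -2.35 points (p = 0.5, the smallest it allows), and the numbers did not pair the libraries (correlation of deviations 9.83e-04 over 24430 regions). Smc1a replicates could not be left out, since the classes need both.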
